A study of Mus musculus with 18 samples.

Results

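The 45 genes described here encode the enzymes that make, recycle and break down purine and pyrimidine nucleotides. They were chosen by name from a fixed list, and all 45 were found among the 35275 genes of the count table, 12 for *de novo* purine synthesis, 5 for *de novo* pyrimidine synthesis, 10 for deoxynucleotide formation, 9 for salvage and 9 for breakdown. RNA-seq was performed on 18 libraries of untreated cell lines grown from mouse malignant peripheral nerve sheath tumors (MPNSTs), aggressive sarcomas of the nerve sheath. The tumors arose in wild-type 129 Sv/Jae mice after adenovirus carrying Cas9 under a CMV promoter and guide RNAs was injected into the sciatic nerve, and every line therefore carries targeted *Nf1*. In addition, 3 lines were targeted at *p53* (genotype Nf1-/-;p53-/-, *Nf1*/*p53* dKO) and 3 at *Cdkn2a*, the locus of p16 and p19 (*Nf1*/*Cdkn2a* dKO). Each line came from its own tumor and was sequenced as 3 cultures in DMEM with 10% FBS, so the line (n = 3 per genotype) was the unit of replication between genotypes and the 3 cultures were summed. The lines had been passaged in culture before use, and the age of the mice is not given in the sources used here.

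Cells build purines step by step on an activated ribose phosphate, from PRPP to IMP and then to AMP and GMP, and build the pyrimidine ring first as orotate, which becomes UMP and then CTP. Ribonucleotide reductase turns ribonucleoside diphosphates into the deoxy forms, thymidylate synthase adds the methyl group that makes dTMP, and small kinases carry the products to triphosphates for DNA and RNA synthesis. Salvage kinases and phosphoribosyltransferases return free bases and nucleosides to the pool, while deaminases, phosphorylases and xanthine dehydrogenase lead them out of it; in the mouse, urate oxidase carries uric acid on to allantoin. Proliferating cells are known for heavy use of the *de novo* routes, and the ribose phosphate they need comes from the pentose phosphate pathway, on which the study centered.

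Total counts ran from 19560535 to 28312207 per library and from 65206479 to 73065228 per line. Levels are given as CPM, counts scaled to a line's total with TMM, and the values of a genotype follow the order of lines 1, 2 and 3. *Trp53* had 94.1, 67.5 and 58.7 CPM in *Nf1*/*p53* lines 1 to 3 and 247, 246 and 185 CPM in *Nf1*/*Cdkn2a* lines 1 to 3, while *Nf1* and *Cdkn2a* overlapped between genotypes; their RNA does not read the edited sequence. Of the markers listed for the label of mesenchymal cells, *Vim* had 4730 to 10200 and *S100a4* 957 to 1750 CPM in every line. By contrast, *Thy1* ranged from 7.02 to 467 and *Col1a1* from 302 to 4170 CPM, and the label itself was not tested. Of the Schwann lineage markers *Sox10* stayed at or below 0.099 CPM, whereas *Pmp22* had 13.2 to 71.3 and *Gap43* 4.65 to 59.6 CPM. Of the leukocyte markers *Ptprc* stayed at or below 0.563 CPM, whereas *Cd14* had 7.86 to 27.9 CPM in every line and *Laptm5* 11.0 to 18.6 CPM in *Nf1*/*Cdkn2a* lines. *Nf1*/*p53* line 3 held the highest level of 25.9% and the lowest of 25.5% of the 15207 genes tested. Alone of the 6 lines, it held the muscle regulator *Myod1* at 204 CPM, against 1.75 CPM or less in the others. Other muscle markers were not particular to that line. *Myf5* had 28.0, 24.2 and 27.7 CPM in the *Nf1*/*p53* lines and at most 0.0156 CPM in *Nf1*/*Cdkn2a* lines. *Cdh15* had 34.2, 27.9 and 97.6 CPM against at most 0.332 CPM, whereas *Myl4* overlapped between genotypes.

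Promoter windows from RefSeq (GRCm38.p6, 250 bases before to 50 after a start) were found for 42 of the 45 genes, 55 windows in all, and none for *Pfas*, *Dhodh* and *Xdh*. Both strands were searched for the E-box CACGTG, for 3 spellings of the E2F site (TTTCGCGC, TTTGGCGC and TTTCCCGC), for CCAAT and for the interferon response element GAAANNGAAA. The E-box was in 7 of the 55 windows (12.7%), those of *Atic*, *Impdh2*, *Paics*, *Dtymk*, *Tyms* and *Nme1*, against 7.15% of all 32851 windows. E2F spellings were in 2 windows, of *Ppat* and *Prps2* (3.64% against 1.84%), CCAAT in 19 (34.5% against 37.4%) and the interferon element in 1, of *Cmpk1* (1.82% against 3.44%). The windows below belong to *Samhd1*, *Ada*, *Cmpk1* and the neighbors *Ppat* and *Paics*. *Samhd1* was lower in the *Nf1*/*Cdkn2a* than in the *Nf1*/*p53* dKO. The lines of *Ada* did not overlap in the same direction, and those of *Cmpk1* did not overlap in the other direction. Capitals mark the E-box, the E2F spellings and the interferon element.
Samhd1 (chr2:157135047-157135346, minus strand): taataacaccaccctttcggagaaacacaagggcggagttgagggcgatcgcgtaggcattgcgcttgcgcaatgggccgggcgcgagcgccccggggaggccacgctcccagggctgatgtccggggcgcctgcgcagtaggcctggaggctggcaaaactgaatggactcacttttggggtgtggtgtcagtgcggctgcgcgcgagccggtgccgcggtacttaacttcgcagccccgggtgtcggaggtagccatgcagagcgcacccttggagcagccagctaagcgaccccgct
Ada (chr2:163750190-163750489, minus strand): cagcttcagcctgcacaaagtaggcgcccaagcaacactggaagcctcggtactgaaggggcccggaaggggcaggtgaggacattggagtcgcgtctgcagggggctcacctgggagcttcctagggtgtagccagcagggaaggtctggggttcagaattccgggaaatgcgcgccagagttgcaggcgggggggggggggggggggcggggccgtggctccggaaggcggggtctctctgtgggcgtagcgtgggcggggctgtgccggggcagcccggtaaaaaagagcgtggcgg
Cmpk1 (chr4:114987179-114987478, minus strand): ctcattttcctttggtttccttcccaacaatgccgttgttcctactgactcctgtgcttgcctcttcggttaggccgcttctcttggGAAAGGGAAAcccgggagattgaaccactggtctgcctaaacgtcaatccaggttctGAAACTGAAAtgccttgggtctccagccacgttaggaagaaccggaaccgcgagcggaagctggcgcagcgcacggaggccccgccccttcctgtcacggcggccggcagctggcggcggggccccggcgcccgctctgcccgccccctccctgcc
Ppat (chr5:76951529-76951828, minus strand): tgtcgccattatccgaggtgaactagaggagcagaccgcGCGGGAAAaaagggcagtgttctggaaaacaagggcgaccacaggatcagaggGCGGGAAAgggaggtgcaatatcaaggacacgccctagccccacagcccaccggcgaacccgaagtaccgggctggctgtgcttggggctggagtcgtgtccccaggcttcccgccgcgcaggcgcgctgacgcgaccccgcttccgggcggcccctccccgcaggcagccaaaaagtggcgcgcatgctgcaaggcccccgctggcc
Paics (chr5:76951052-76951351, plus strand): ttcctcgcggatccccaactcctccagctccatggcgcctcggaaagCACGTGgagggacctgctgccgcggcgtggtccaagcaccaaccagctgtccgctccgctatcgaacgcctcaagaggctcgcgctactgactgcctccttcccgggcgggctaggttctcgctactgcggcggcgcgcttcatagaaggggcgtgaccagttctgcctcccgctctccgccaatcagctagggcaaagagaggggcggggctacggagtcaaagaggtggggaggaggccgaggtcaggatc
*Ppat* and *Paics*, which encode the first step and a middle step of purine synthesis, start 271 bases apart on opposite strands of chromosome 5, and their first exons share 272 bases in GENCODE M21. *Cmpk1* carries the interferon element at 2 places. In the windows of *Samhd1* and *Ada* no match to the 3 capitalized motifs was found.

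All 45 genes passed the filter on low counts, and 2 of them differed between genotypes at an adjusted p under 0.05, both lower in the *Nf1*/*Cdkn2a* dKO and both breakdown genes: *Xdh* and *Samhd1*. Over all 15207 genes tested the share called was 1.8%, with 1.16% lower and 0.638% higher. No gene of *de novo* purine synthesis, *de novo* pyrimidine synthesis, deoxynucleotide formation or salvage was called by edgeR, whereas 7 of these 36 had an unadjusted p under 0.05 (22.4% of all genes did), and DESeq2 on the same 6 lines, which called 14.4% of all genes, called 5 of them (*Gmps*, *Ctps*, *Tyms*, *Cmpk1* and *Dck*). In sign, 23 of the 45 were higher and 22 lower, with a median log2 fold change (*Nf1*/*Cdkn2a* over *Nf1*/*p53* dKO) of 0.0009 against −0.023 for all genes tested. The median size of the change was 0.28 on the log2 scale, against 0.38 for all genes.

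In 14 of the 45 genes one genotype's 3 lines all exceeded the other's 3, 5 with the *Nf1*/*Cdkn2a* dKO on top and 9 with it below; over all genes 31.4% did so, 14.8% higher and 16.6% lower. By class, the median log2 fold change was 0.060 for *de novo* purine, 0.16 for *de novo* pyrimidine, 0.070 for deoxynucleotide, 0.013 for salvage and −0.26 for breakdown genes. Scaling to total counts, which moved the median of all genes to −0.16, turned the purine, deoxynucleotide and salvage medians below 0, to −0.071, −0.063 and −0.12. Leaving out 1 line turned the purine median to −0.041 (*Nf1*/*p53* line 3) or −0.062 (*Nf1*/*Cdkn2a* line 2), the pyrimidine median to −0.0038 and the salvage median to −0.083 at the lowest, and the breakdown median to 0.19 (without *Nf1*/*p53* line 1) or −0.70 (without *Nf1*/*Cdkn2a* line 3). The breakdown class had the largest median size of change of the 5 classes, 0.85, against 0.17 for salvage and 0.22 to 0.32 for the other 3. That middle value was the one of *Dpyd*, a gene of low counts (−0.85, SE 1.04, edgeR adjusted p = 0.662). With 1 line left out *Dpyd* ran from −1.36 to 1.04. The signed median of the class, −0.26, was the value of *Tymp* (SE 0.48), whose count is low and uncertain.

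**Figure D1:**
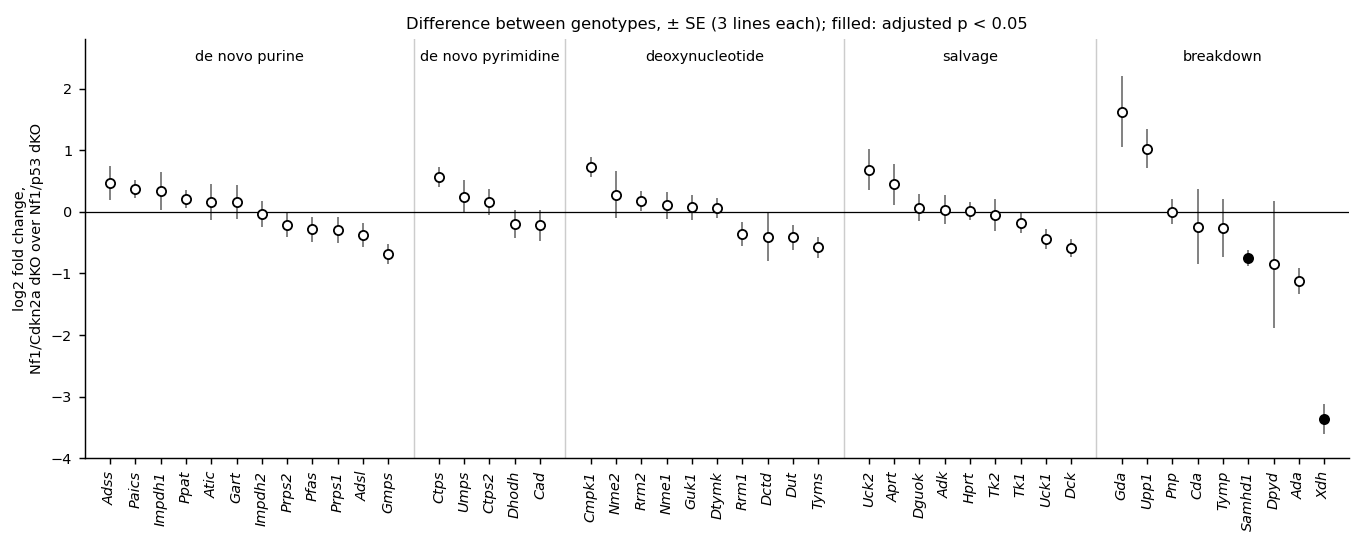
Log2 fold change of each of the 45 genes (vertical axis, *Nf1*/*Cdkn2a* over *Nf1*/*p53* dKO), ordered within the 5 classes. Bars are the SE derived from the F statistic of the edgeR fit to 3 lines per genotype, and filled circles mark an adjusted p under 0.05. *Xdh* at −3.37 and *Samhd1* at −0.75 are the 2 filled circles, and outside the breakdown class every circle lies between −0.68 and 0.74.

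Levels were compared between genes only after dividing by the exonic length of the gene. The synthesis classes then had higher median levels than the breakdown class, while single genes overlapped between classes. Averaged over the 6 lines, median levels were 24.0 CPM per kb for purine, 28.6 for pyrimidine, 23.2 for deoxynucleotide, 17.6 for salvage and 2.17 for breakdown genes, beside 4.06 CPM per kb for 15119 genes tested that have an M21 identifier. *Pnp* was left out of these levels because its M21 model shares all its exonic bases with other models. *Tymp* and *Nme2*, which share 42.0% and 48.9% of their exonic bases with other genes, were kept. Of the other 44 genes, 36 lay above the median of all genes, among them 3 of the 8 breakdown genes. The 44 ran from 0.188 CPM per kb for *Dpyd* to 110 CPM per kb for *Paics*. The breakdown class reached 40.1 CPM per kb, for *Upp1*, and the deoxynucleotide class went down to 0.676 CPM per kb, for *Nme2*.

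**Figure D2:**
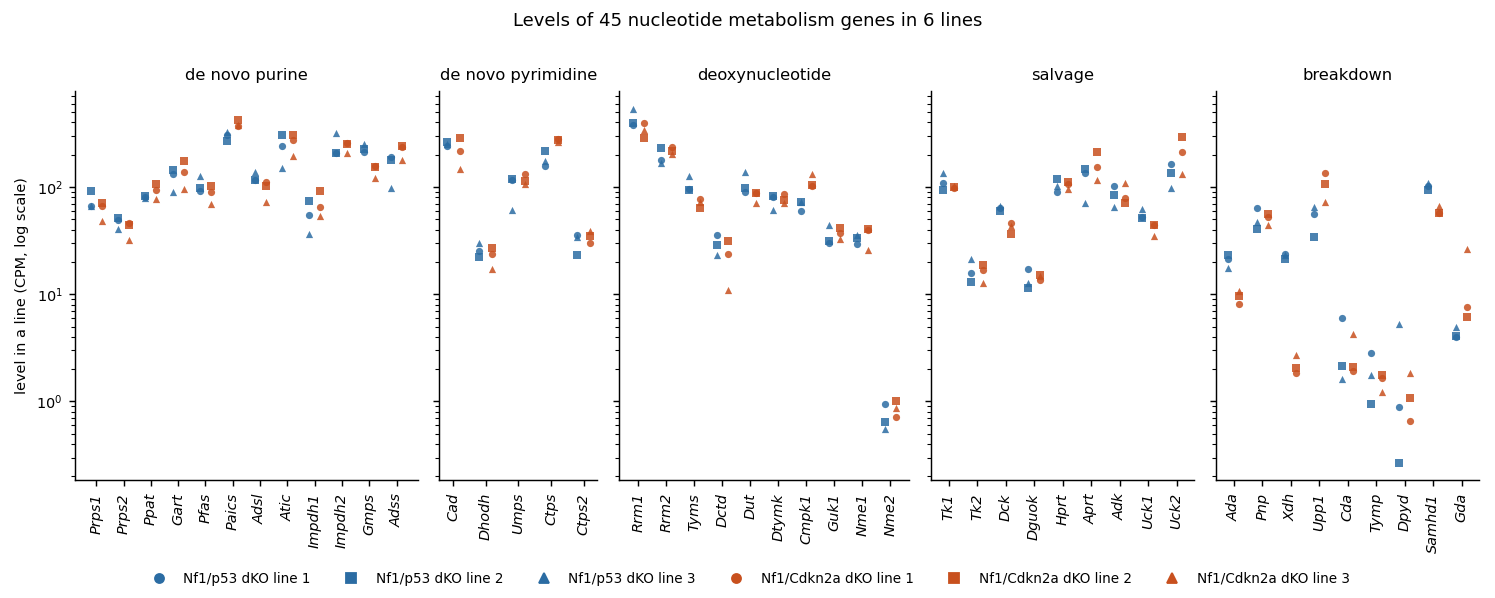
Level of each gene in each of the 6 lines (CPM, log scale), by class; blue marks *Nf1*/*p53* dKO, red *Nf1*/*Cdkn2a* dKO, and the symbol gives the line number. CPM is not divided by length here, so heights compare lines and not genes. *Xdh* shows the widest gap between the colors, 21.1 to 23.9 CPM against 1.86 to 2.71 CPM.

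Among the breakdown genes, *Xdh* (chromosome 17, 73883895 to 73950196), xanthine dehydrogenase, oxidizes hypoxanthine and xanthine to uric acid. It had 23.9, 21.1 and 23.3 CPM in the *Nf1*/*p53* lines and 1.86, 2.05 and 2.71 CPM in *Nf1*/*Cdkn2a* lines. The cultures were far apart as well, 17.7 to 26.3 CPM (9 cultures of 3 lines) against 1.44 to 2.92 CPM (9 cultures of 3 lines). Raw counts were 399 to 738 and 27 to 60 per library. Here and below, cultures of a line are not replicates of a genotype, and their ranges add no test between genotypes. The log2 fold change was −3.37 (SE 0.24, adjusted p = 0.0170), a level 10.3-fold higher in the *Nf1*/*p53* dKO. With 1 line left out it stayed between −3.54 and −3.25, but the adjusted p passed 0.05 without *Nf1*/*Cdkn2a* line 1 (0.0889) or line 2 (0.0863).

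*Samhd1* (chromosome 2, 157097533 to 157135265) encodes the triphosphohydrolase that cleaves dNTPs to deoxynucleosides. Its levels were 101, 93.9 and 108 CPM in the *Nf1*/*p53* lines and 57.0, 57.3 and 65.9 CPM in *Nf1*/*Cdkn2a* lines, and no culture overlapped (91.9 to 110 against 52.9 to 66.3 CPM). The log2 fold change of −0.75 (SE 0.13, 1.68-fold higher in the *Nf1*/*p53* dKO) had an edgeR adjusted p of 0.0496, just under the threshold. Leaving out any one of the 6 lines kept the difference between −0.82 and −0.69 and raised the adjusted p to between 0.0763 and 0.168. In many cells *Samhd1* is inducible by interferon, and of 24 interferon-stimulated genes tested 22 were lower in sign, 17 lower without overlap of lines (16.6% of all genes) and 1 called (1.8% of all genes). Their summed level was 205 to 354 CPM in the *Nf1*/*p53* lines and 102 to 184 CPM in *Nf1*/*Cdkn2a* lines; the part of this in the *Samhd1* result was not tested.

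*Ada*, adenosine deaminase, converts adenosine and deoxyadenosine to inosine forms. It had 21.1, 23.1 and 17.6 CPM against 8.13, 9.53 and 10.8 CPM. The lines did not overlap, and the log2 fold change of −1.12 (SE 0.21) had an adjusted p of 0.0538. *Upp1*, uridine phosphorylase, which releases uracil and ribose phosphate from uridine, lay on the other side, with 56.4, 34.4 and 64.6 against 136, 107 and 72.9 CPM (log2 fold change 1.03, SE 0.31, adjusted p = 0.126). The closest lines were *Nf1*/*p53* line 3 and *Nf1*/*Cdkn2a* line 3.

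*Gda*, guanine deaminase, had 3.97, 4.09 and 4.91 CPM against 7.64, 6.14 and 26.4 CPM (log2 fold change 1.63, SE 0.58, adjusted p = 0.172). A single line, *Nf1*/*Cdkn2a* line 3, held the high value, and without it the log2 fold change was 0.68. The remaining breakdown genes overlapped between genotypes. *Pnp*, purine nucleoside phosphorylase, had 40.8 to 64.2 against 44.7 to 55.8 CPM, on a locus whose annotated models overlap, so its count is uncertain. *Cda* (cytidine deaminase), *Tymp* (thymidine phosphorylase) and *Dpyd* (dihydropyrimidine dehydrogenase) were low, at most 6.06, 2.86 and 5.29 CPM in any line. *Tymp* shares 42.0% of its exonic bases with other genes, mainly *Sco2*, and is uncertain too.

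**Figure D3:**
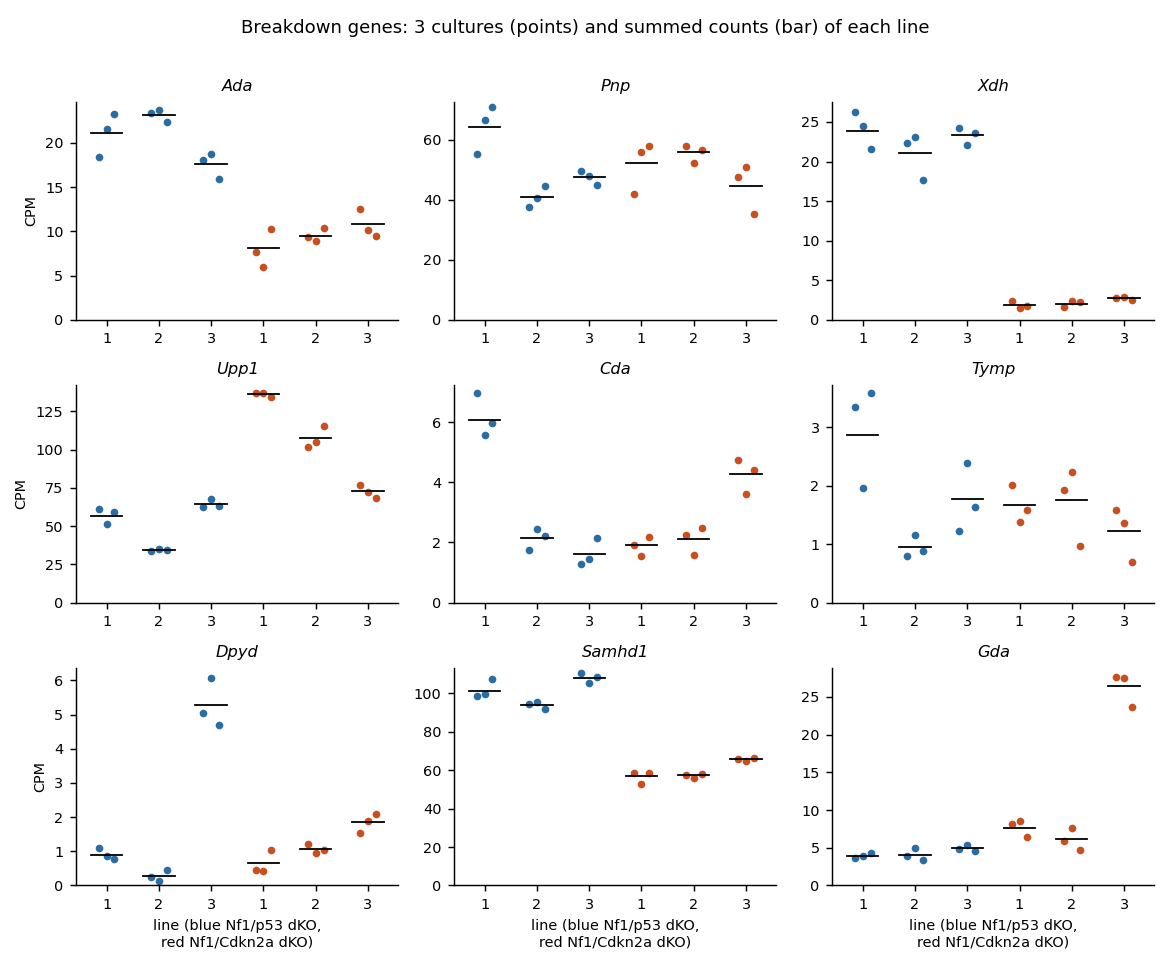
CPM of the 9 breakdown genes in each of the 3 cultures of a line (points) and in the summed counts of the line (bars), from 0; blue lines are *Nf1*/*p53* dKO and red lines *Nf1*/*Cdkn2a* dKO. *Ada*, *Xdh* and *Samhd1* are lower in all red cultures, *Upp1* is higher in all of them, and single lines set the ranges of *Dpyd* and *Gda*.

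The 12 genes of *de novo* purine synthesis were split evenly in sign, 6 higher and 6 lower, with none called and 2 at an unadjusted p under 0.05. *Ppat*, the amidotransferase of the committed step, had 80.4, 82.5 and 78.6 CPM in the *Nf1*/*p53* lines and 93.5, 107 and 77.9 CPM in *Nf1*/*Cdkn2a* lines, which overlapped (log2 fold change 0.21, SE 0.15, adjusted p = 0.460). Its neighbor *Paics*, which carries out the carboxylation and SAICAR steps, had 305, 268 and 329 against 374, 419 and 378 CPM. For *Paics* the lines did not overlap, with a log2 fold change of 0.37 (SE 0.14, adjusted p = 0.188). Reads from the 272 bases that both genes share cannot be assigned without strand, and the strand setting of the counts is not given in the sources used here.

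The lowest value of the class was that of *Gmps*, GMP synthetase, the last step to GMP, with 212, 226 and 252 against 156, 153 and 121 CPM (log2 fold change −0.68, SE 0.16, adjusted p = 0.0776). Its 9 *Nf1*/*p53* cultures (210 to 264 CPM) all lay above the 9 *Nf1*/*Cdkn2a* cultures (119 to 170 CPM). *Adsl*, adenylosuccinate lyase, was the other gene without overlap on that side, with 117, 115 and 137 against 111, 102 and 72.4 CPM (−0.37, SE 0.19, adjusted p = 0.305). The highest value was that of *Adss*, adenylosuccinate synthase on the branch to AMP, with 192, 179 and 98.9 against 235, 239 and 177 CPM (0.47, SE 0.28, adjusted p = 0.364); *Nf1*/*p53* line 3 was the low one, and lines 1 and 2 overlapped the *Nf1*/*Cdkn2a* range. *Gmps* and *Adss*, on the branches to GMP and AMP, were named as the lowest and highest of the class. Their opposite signs follow from that choice, and neither passed the test. The branches were not uniform in sign. On the branch to AMP *Adsl* was at −0.37, and at the entry to GMP *Impdh1* was at 0.34 and *Impdh2* at −0.04.

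*Impdh2*, the proliferation-associated IMP dehydrogenase at the entry to GMP, had 210, 207 and 316 CPM against 256, 251 and 207 CPM (−0.04, SE 0.21), where the high line was *Nf1*/*p53* line 3; without it the log2 fold change was 0.20. *Prps1* and *Prps2*, which make PRPP, *Gart*, *Pfas* and *Atic* of the middle steps, and *Impdh1* all overlapped between genotypes, with log2 fold changes from −0.29 to 0.34. *Nf1*/*Cdkn2a* line 2 was the highest of the 6 lines for 6 of the 12 genes (*Ppat*, *Gart*, *Paics*, *Atic*, *Impdh1* and *Adss*), and *Nf1*/*Cdkn2a* line 3 the lowest for 6 (*Prps1*, *Prps2*, *Ppat*, *Pfas*, *Adsl* and *Gmps*). Over all genes tested these lines were highest for 15.8% and lowest for 16.9%. *Gart* and, among the pyrimidine genes, *Umps* share 19.7% and 6.11% of their exonic bases with genes on the opposite strand, which makes their counts uncertain too.

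Of the 5 genes of *de novo* pyrimidine synthesis, 3 were higher and 2 lower in sign and none was called. *Cad*, the trifunctional enzyme of the first 3 steps, had 240, 263 and 253 CPM in the *Nf1*/*p53* lines and 215, 288 and 146 CPM in *Nf1*/*Cdkn2a* lines (−0.22, SE 0.25, adjusted p = 0.634). The *Nf1*/*Cdkn2a* lines lay on both sides of the others, and without line 3 the log2 fold change was 0.0027. *Ctps*, CTP synthase 1, was the one member of the class without overlap, with 158, 219 and 175 against 283, 277 and 261 CPM (0.57, SE 0.16, adjusted p = 0.110). Its cultures did not overlap either, 156 to 220 against 256 to 295 CPM. *Dhodh*, the mitochondrial dihydroorotate dehydrogenase, *Umps* and the second CTP synthase *Ctps2* overlapped, at 17.2 to 30.4, 61.1 to 132 and 23.3 to 39.3 CPM. *Dhodh* was the lowest of the class per length, 3.85 CPM per kb, and *Ctps* the highest, 68.9 CPM per kb.

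Of the 10 genes of deoxynucleotide formation, 6 were higher and 4 lower in sign and none was called. The subunits of ribonucleotide reductase differed in sign: *Rrm1*, the large subunit, had 382, 396 and 536 against 394, 287 and 342 CPM (−0.36, SE 0.20, adjusted p = 0.333), and *Rrm2*, the small subunit of dividing cells, 180, 232 and 169 against 235, 217 and 204 CPM (0.17, SE 0.17, adjusted p = 0.572). Both overlapped. The highest *Rrm1* level was in *Nf1*/*p53* line 3, the line with the lowest *Rrm2*.

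*Tyms*, thymidylate synthase, had 96.8, 93.0 and 128 CPM in the *Nf1*/*p53* lines and 76.8, 64.3 and 72.3 CPM in *Nf1*/*Cdkn2a* lines (−0.57, SE 0.17, adjusted p = 0.117), without overlap of lines or cultures. *Dut*, which hydrolyzes dUTP and so keeps uracil out of DNA, had 90.5, 98.3 and 139 against 87.1, 88.1 and 70.8 CPM (−0.41, SE 0.20, adjusted p = 0.281), where the gap between *Nf1*/*p53* line 1 and *Nf1*/*Cdkn2a* line 2 was narrow. *Cmpk1*, the kinase of UMP and CMP, was on the other side, with 59.4, 72.1 and 72.8 against 103, 104 and 133 CPM (0.74, SE 0.16, adjusted p = 0.0696) and no overlap of cultures.

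*Dctd*, *Dtymk*, *Guk1*, *Nme1* and *Nme2* overlapped between genotypes, and *Dctd*, dCMP deaminase, was lowest in *Nf1*/*Cdkn2a* line 3 at 10.9 CPM against 23.1 to 36.0 CPM in the other lines. The nucleoside diphosphate kinases *Nme1* and *Nme2* overlap a readthrough gene, *Gm20390*, on chromosome 11, which was listed at 0 in all lines; *Nme2* had 0.554 to 1.01 CPM and is uncertain, as is *Nme1* at 25.8 to 40.3 CPM. Their sum with *Gm20390* gave a log2 fold change of 0.11 (adjusted p = 0.785).

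Of 35 genes of replication and S phase, 32 were lower in sign in the *Nf1*/*Cdkn2a* dKO and 20 lower without overlap of lines (16.6% of all genes). None was called by edgeR, and 14 had an unadjusted p under 0.05 (22.4% of all genes). The list's median log2 fold change was −0.43. Their summed level was 3035 to 3964 CPM in the *Nf1*/*p53* lines, highest in line 3, and 2331 to 2873 CPM in *Nf1*/*Cdkn2a* lines. Of the deoxynucleotide genes, *Rrm1*, *Tyms*, *Dut* and *Guk1* were also highest in *Nf1*/*p53* line 3, whereas *Rrm2*, *Dtymk* and *Nme2* were lowest there. The relation of these levels to the share of cycling cells was not tested.

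Of the 9 salvage genes, 5 were higher and 4 lower in sign and none was called. *Dck*, the deoxycytidine kinase of the cytosol, had 64.0, 59.3 and 66.3 CPM in the *Nf1*/*p53* lines and 46.1, 36.6 and 43.7 CPM in *Nf1*/*Cdkn2a* lines (−0.59, SE 0.14, adjusted p = 0.0871), the lowest value of the class. *Uck1*, a uridine-cytidine kinase, had 52.7, 51.8 and 62.2 against 44.4, 44.2 and 34.6 CPM (−0.44, SE 0.16, adjusted p = 0.184). Neither gene overlapped in lines or in cultures. The other uridine-cytidine kinase, *Uck2*, had the highest value of the class, with 163, 136 and 98.0 against 214, 295 and 132 CPM (0.69, SE 0.33, adjusted p = 0.275), *Nf1*/*Cdkn2a* line 3 lying within the *Nf1*/*p53* range. The table holds a second *Uck2* entry, whose identifier is not in M21, at 8.36 to 12.0 against 10.0 to 18.1 CPM (0.56, adjusted p = 0.309).

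*Hprt*, which salvages hypoxanthine and guanine, was close to level, with 89.6, 120 and 103 against 106, 112 and 96.6 CPM (0.01, SE 0.15, adjusted p = 0.971), and its sign turned under other scalings. *Aprt*, its counterpart for adenine, ranged from 71.0 CPM in *Nf1*/*p53* line 3 to 212 CPM in *Nf1*/*Cdkn2a* line 2 and overlapped. The thymidine kinases *Tk1* of the cytosol and *Tk2* of mitochondria, *Dguok*, the mitochondrial deoxyguanosine kinase, and *Adk*, adenosine kinase, overlapped as well, with log2 fold changes from −0.17 to 0.07.

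For 8 pairs of enzymes with a shared reaction, the log2 ratio of counts within a line was compared between genotypes, a measure that does not depend on the scaling of libraries. With 3 lines against 3, the two-sided exact permutation test cannot give a p below 0.1. The ratio of *Uck2* to *Uck1* was 1.63, 1.40 and 0.66 in the *Nf1*/*p53* lines and 2.27, 2.74 and 1.93 in the *Nf1*/*Cdkn2a* lines on the log2 scale, a difference of means of 1.08 or 2.12-fold (exact permutation p = 0.1, adjusted over the 8 pairs 0.4). The ratio of *Dck* to *Dguok* was 1.88, 2.38 and 2.39 against 1.75, 1.28 and 1.57, a difference of −0.68 (exact permutation p = 0.1, adjusted 0.4). These were the 2 pairs whose lines did not overlap.

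Among the other 6 pairs the ratios overlapped, with exact permutation p from 0.3 to 0.7. *Impdh2* over *Impdh1* was 1.93, 1.47 and 3.12 against 1.97, 1.45 and 1.93, so *Nf1*/*p53* line 3 stood apart from 5 lines between 1.45 and 1.97. *Ctps* over *Ctps2* averaged 2.57 ± 0.58 (SD, n = 3) against 2.98 ± 0.25, and *Rrm2* over *Rrm2b*, the small subunit that p53 is known to induce, 3.30 ± 0.25 against 3.45 ± 0.093. *Rrm2b* itself had 21.7, 19.8 and 17.3 CPM in the *Nf1*/*p53* lines and 21.6, 18.6 and 19.8 CPM in *Nf1*/*Cdkn2a* lines (log2 fold change 0.03, SE 0.17, adjusted p = 0.932). *Prps2* over *Prps1* averaged −0.67 ± 0.21 against −0.60 ± 0.087, *Tk1* over *Tk2* 2.77 ± 0.097 against 2.66 ± 0.32, and *Nme1* over *Nme2* 5.54 ± 0.54 against 5.32 ± 0.45, the last on uncertain counts.

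**Figure D4:**
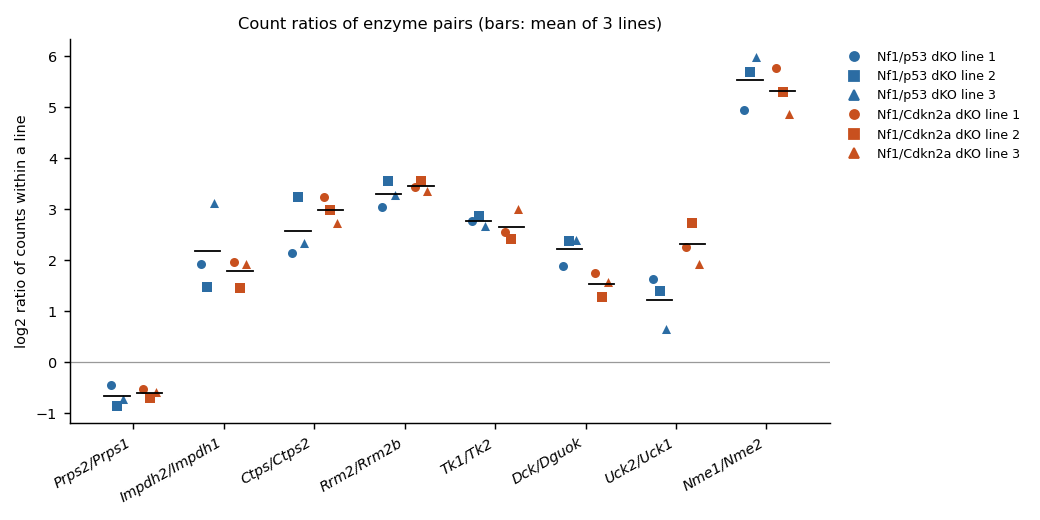
Log2 ratio of the counts of the enzymes of each pair within a line (vertical axis), for *Nf1*/*p53* dKO (blue) and *Nf1*/*Cdkn2a* dKO (red), with the line number as symbol and the mean of 3 lines as bar. The colors separate for *Dck*/*Dguok* and *Uck2*/*Uck1*, and *Impdh2*/*Impdh1* is highest in *Nf1*/*p53* line 3 at 3.12.

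The lines of a genotype were then compared with each other. With cultures as the samples, 39 of the 45 genes differed among the *Nf1*/*p53* lines and 37 among the *Nf1*/*Cdkn2a* lines at an adjusted p under 0.05 (edgeR quasi-likelihood F test), beside 73.2% and 56.8% of all 14690 genes tested. A range of at least 2-fold between the highest and the lowest line was also met by 6 genes among the *Nf1*/*p53* lines and 5 among the *Nf1*/*Cdkn2a* lines, beside 29.3% and 17.6% of all genes. The median range of the 45 genes was 1.40-fold and 1.39-fold, against 1.61-fold and 1.39-fold over all genes. *Xdh* was called in neither genotype (range of at most 1.45-fold), whereas *Samhd1* was called in both with ranges of 1.15-fold and 1.16-fold.

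The widest range was that of *Dpyd*, which starts pyrimidine degradation, with 0.889, 0.269 and 5.29 CPM in the *Nf1*/*p53* lines, 19.2-fold, and 0.658, 1.07 and 1.85 CPM in *Nf1*/*Cdkn2a* lines, 2.83-fold. *Cda* had 6.06, 2.14 and 1.62 CPM against 1.91, 2.11 and 4.29 CPM, ranges of 3.79-fold and 2.24-fold, and *Tymp* 3.10-fold among *Nf1*/*p53* lines. The other genes past 2-fold were *Aprt* (2.09-fold), *Impdh1* (2.06-fold) and *Atic* (2.02-fold) among the *Nf1*/*p53* lines, and *Gda* (4.30-fold), *Dctd* (2.89-fold) and *Uck2* (2.25-fold) among the *Nf1*/*Cdkn2a* lines. In the *Nf1*/*p53* dKO, *Aprt*, *Impdh1*, *Atic*, *Gart*, *Adss*, *Umps* and *Uck2* were among the genes with their lowest level in line 3. Others were *Prps1*, *Rrm2*, *Adk* and *Ada*. *Nf1*/*p53* line 3 was the highest of all 6 lines for 15 of the 45 genes (33.3%) and the lowest for 12 (26.7%), beside 25.9% and 25.5% of all genes.

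**Figure D5:**
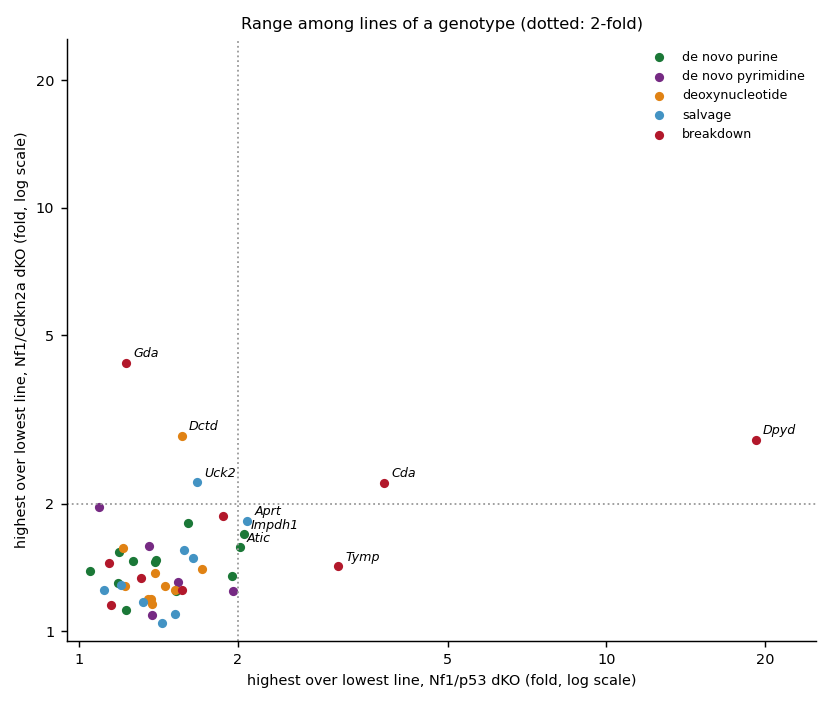
Highest over lowest line, as fold on log scales, among the 3 *Nf1*/*p53* dKO lines (horizontal) and the 3 *Nf1*/*Cdkn2a* dKO lines (vertical) for each of the 45 genes, colored by class; dotted lines mark 2-fold and genes past either are named. *Dpyd* lies at 19.2-fold and 2.83-fold, *Gda* at 1.23-fold and 4.30-fold, and most genes are below 2-fold on both axes.

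A further 51 genes of nucleotide metabolism, for nucleotide kinases, 5′-nucleotidases, AMP deaminases, nucleoside transporters and related enzymes, were in the table and 43 passed the filter. Of these 18 were higher and 25 lower in sign, 19 did not overlap (6 higher and 13 lower) and 1 was called, with a median log2 fold change of −0.17. Over all genes 31.4% did not overlap (14.8% higher and 16.6% lower) and 1.8% were called. The gene called was *Ak4*, a mitochondrial adenylate kinase, with 27.7, 44.0 and 37.7 CPM in the *Nf1*/*p53* lines and 14.6, 15.8 and 15.6 CPM in *Nf1*/*Cdkn2a* lines (−1.25, SE 0.21, adjusted p = 0.0465; 0.0457 to 0.151 with 1 line left out). The highest value was that of *Uckl1*, an enzyme related to the uridine kinases, with 14.2, 8.47 and 4.75 against 18.8, 23.7 and 25.5 CPM (1.31, SE 0.41, adjusted p = 0.129). The lowest was that of *Cmpk2*, a mitochondrial UMP-CMP kinase that interferon induces in many cells, with 159, 45 and 289 raw counts in the *Nf1*/*p53* lines and 0, 0 and 7 in the *Nf1*/*Cdkn2a* lines (adjusted p = 0.0866). Both UMP-CMP kinases separated by line, *Cmpk1* higher and *Cmpk2* lower in the *Nf1*/*Cdkn2a* dKO, and neither passed the test. They were named as the highest of the deoxynucleotide class and the lowest of this list, so their opposite directions follow from that choice.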

How the data were processed

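RNA-seq was measured in 18 libraries. The authors deposited raw counts, whole numbers of reads per gene without normalization; per the submitters' processing notes the build was GRCm38/mm10 and the tools were CASAVA, STAR 2.5 and DESeq2 1.14.1, with the counting tool, annotation and strand setting not given in the sources used here. The study's statistics text and legends differ on the number of replicates, and the grouping followed the labels. Genotype, line and culture of each column were read from its name. The 3 cultures of each line were pooled by adding their counts, then filtered with filterByExpr (minimum count 10, minimum total 15), normalized by TMM and tested with the quasi-likelihood method of edgeR, two-sided, with Benjamini-Hochberg adjustment over all 15207 genes (edgeR 4.0.16, limma 3.58.1, DESeq2 1.42.0, R 4.3.3); SE is the log2 fold change divided by the square root of the F statistic. Lines of a genotype were compared with cultures as samples over 14690 genes, where p-values test differences between lines against the spread between cultures. Pair ratios added 0.5 to each count. Positions, exon lengths and overlaps came from GENCODE M21 (GRCm38), with all 45 identifiers matched; a *Uck2* row without an M21 identifier was set aside. Figures and annotation used Python with pandas and matplotlib, and the fits were tested on simulated data.

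The members and lists were chosen with earlier results of these data known. Genes named with values were those called, the highest and lowest of each class, those without overlap of lines, both genes of each pair, 9 committed or rate-limiting steps, and, of the other pathway genes, those called, the highest and the lowest; genes given by range, and *Aprt*, *Dpyd*, *Cda* and the like in the comparison of lines, were chosen after their values were seen. Alternatives were 3 other scalings, 2 other filters, DESeq2, the 18 cultures as samples in edgeR, DESeq2 or limma-voom, a block for line or for culture number, and each line or culture left out; a 2-fold range among lines and the sums or second rows of *Nme1*, *Nme2* and *Uck2* were added after seeing the data. Markers of leukocytes, endothelium, muscle, Schwann lineage and mesenchyme were summed by line. Within lines, cultures were further apart than counting noise allows (chi-square over degrees of freedom 3.57 to 29.2), so none was counted as a repeat. In these bulk samples fewer cells of a type and less RNA per cell cannot be told apart. Some single-gene results are left out of the text.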

Additional observations from a re-analysis of the deposited data

Results flagged for a closer look

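One of 90 groups of 9 cultures tested held a culture far from the others. *Tk1*, cytosolic thymidine kinase, had 78.1 CPM in culture 1 of *Nf1*/*Cdkn2a* line 1, while the next lowest of the 9 *Nf1*/*Cdkn2a* cultures had 96.5 CPM, and that gap was 0.560 of the group's whole range. The nominal rate of such gaps by chance, about 1 in 20 groups, assumes 9 samples of one kind, whereas these are 3 cultures from each of 3 lines. The other cultures of that line had 104 and 111 CPM, and the summed level of the line was 98.2 CPM, beside 99.9 and 102 CPM in *Nf1*/*Cdkn2a* lines 2 and 3. Culture 1 of that line also stood apart from its sister cultures for genes that were not flagged. *Aprt* had 99.25 CPM there against 175.6 and 186.5 CPM, *Dhodh* 18.32 against 26.76 and 25.98, and *Rrm1* 445.1 against 374.9 and 361.7. For *Upp1* it did not, with 136.7 against 137.1 and 134.4 CPM. A gap among 9 cultures can miss such a culture where the lines are far apart.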

How the results depend on the processing

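Of the 45 genes, 2 were called with TMM, DESeq2's size factors or upper-quartile scaling, 3 with total counts (with *Ada*), 1 with no filter, 10 with DESeq2 on the 6 lines, 20 with edgeR and 20 with DESeq2 on the 18 cultures as samples, 13 with limma-voom and the line as a random effect, 0 without *Nf1*/*Cdkn2a* line 1 or 2, 1 (*Xdh*) without any other line and 2 to 3 without 1 culture number (*Ada* without number 1). In the whole table the genes called numbered 423 with total counts (2.78%), 2171 with DESeq2 on 6 lines (14.4%), 6096 and 6409 on 18 cultures (46.5% and 48.9%), 2173 with limma-voom (16.6%) and 0 to 331 with 1 replicate left out: 172, 27 and 107 without *Nf1*/*p53* line 1, 2 or 3, and 0 (2668 at an unadjusted p under 0.05), 2 and 23 without *Nf1*/*Cdkn2a* line 1, 2 or 3. With the line number as a replicate block 0 of the 45 and 0 of all genes were called by edgeR (13 and 2740 at an unadjusted p under 0.05), and with the culture number as a block 18 and 5681. Samples of the same number were not broadly alike: deviations of same-numbered lines correlated at −0.117, −0.130 and −0.083 and those of cultures near 0. Pairing confined to some genes cannot be seen in a single correlation per number. Adjusted p over all alternatives ran from 2.31e-162 to 0.0963 for *Xdh* and from 8.24e-42 to 0.168 for *Samhd1*, the low ends with cultures as samples; *Samhd1* had 0.0553 with no filter. With a 2-fold range added, 6 and 5 genes differed among lines.

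Under total counts the class medians were 0.017 for pyrimidine, −0.063 for deoxynucleotide, −0.12 for salvage and −0.14 for all 45 genes. With 1 replicate left out the medians ran from −0.0038 to 0.27 for pyrimidine, −0.083 to 0.063 for salvage and −0.70 to 0.19 for breakdown genes. Signs turned for *Nme1* (−0.025) and *Dguok* (−0.068) under total counts, for *Hprt* under upper-quartile scaling (−0.032), total counts (−0.12) and 10 counts in every line (−0.0029), and for *Rrm2b* under upper-quartile scaling (−0.016) and total counts (−0.10). With 1 replicate left out, log2 fold changes ran from −0.48 to 0.0027 for *Cad*, −0.13 to 0.20 for *Impdh2*, −0.0020 to 0.27 for *Ctps2*, −0.19 to 0.16 for *Tk2*, −0.037 to 0.27 for *Dguok*, −0.11 to 0.72 for *Nme2*, −0.084 to 0.14 for *Hprt* and −0.045 to 0.11 for *Rrm2b*. The cause was not tested. Low counts limit *Nme2*, *Dpyd* and *Tymp* most.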

Other observations

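Markers of other cell types moved with the genotypes, and their part in the results above was not tested. Muscle markers were lower in sign in all 7 tested, 6 of them without overlap of lines and 2 called (31.4% and 1.8% of all genes), with a summed level of 114 to 579 CPM in the *Nf1*/*p53* lines and 8.42 to 28.8 CPM in the *Nf1*/*Cdkn2a* lines. Leukocyte markers summed to 14.3 to 26.5 against 32.9 to 47.2 CPM, with 1 of 6 tested called, higher. *Cd14* made 7.86 to 27.9 CPM and *Cd68* 1.96 to 7.14 CPM of these sums, *Laptm5* 0.0849 to 0.503 against 11.0 to 18.6 CPM, and *Ptprc* and *Lyz2* stayed under 1 CPM in every line. Schwann lineage markers summed to 79.8 to 128 against 23.7 to 104 CPM, endothelial markers to 1.70 to 2.57 against 1.25 to 2.32 CPM and mesenchymal markers to 10080 to 23820 against 11790 to 20250 CPM, and these sums overlapped. Of 4 endothelial markers tested 1 was called lower and 2 did not overlap, of 10 mesenchymal markers none was called by edgeR (3 had an unadjusted p under 0.05) and 3 were higher without overlap, and of 8 Schwann lineage markers none was called (2 had an unadjusted p under 0.05) or without overlap.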
